A study of Rattus norvegicus with 15 samples.

Results

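A group of 67 genes was at least 3 times higher in the distal than in the proximal segment of the Achilles tendon in each of 5 rats. They were chosen from the 32883 genes of the deposited count table on CPM, which is the count of a gene divided by the library total and multiplied by 1000000. A gene was a member when its mean over the 5 distal libraries was at least 5 CPM and its distal CPM was at least 3 times its proximal CPM plus 0.1 in every rat. The 2 identifiers that the choice set aside beforehand did not meet these limits. The distal and proximal values therefore describe how the genes were chosen and are no finding. The middle libraries took no part in the choice, and how far each gene persisted into the middle segment is the main subject here.

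The animals were untreated, healthy male Sprague-Dawley rats, 8 weeks old, and the study asked how tendon tissue differs along its length. Each tendon was cut out below its junction with the muscle and above its insertion into bone and divided into 3 equal lengths, and matching pieces of the left and right limb were pooled into 1 sample per rat. Distal, middle and proximal tendon each gave 5 poly(A)-selected libraries, 1 per rat, so every rat contributed all 3 segments. Library totals were 23530376 to 30178952 counts in distal, 18866801 to 27817554 in middle and 15413963 to 22205927 in proximal tendon. Measured as the root-mean-square log2 deviation of each library from the average of its segment in the remaining rats, those that stood apart most were the middle library of rat 5 (0.745 log2 units, against 0.445 to 0.521 for the other middle libraries) and the proximal library of rat 2 (0.814, against 0.452 to 0.616), so fits without each of these 2 libraries were run as well.

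As background, the Achilles tendon joins the calf muscles to the heel bone. It is built mainly of collagen fibres laid down by tendon fibroblasts. Near the heel the tendon is pressed against bone, and tissue there takes on features of fibrocartilage. The table names genes by Ensembl identifier only, and the RefSeq gene table used here pairs 0 of the 32883 identifiers with a symbol, so no member could be given a name, a function, a position or a sequence. The tissue label could not be checked against marker genes for the same reason. Members are numbered from 1 to 67 by falling mean distal CPM, and the identifier is printed for the first 2. CPM is not corrected for transcript length, so this order is not an order of transcript abundance. In whole segments of tissue, more cells of a type and more RNA per cell cannot be told apart.

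The members covered a wide range of levels in distal tendon. Mean distal CPM ran from 5.64 to 13426, with a median of 27.9. It was at least 1000 CPM for 3 members, 100 to 1000 for 18, 10 to 100 for 35 and under 10 for 11. Together the 67 genes held 2.25 to 3.47% of all counts in the distal libraries (2.79 ± 0.451%, SD, n = 5). They held 0.380 to 1.43% in the middle (0.726 ± 0.415%) and 0.248 to 0.513% in the proximal libraries (0.404 ± 0.106%). In the middle, rat 1 was well above the rest, at 1.43% against 0.380 to 0.682% in the other 4 rats.

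The distal-to-proximal ratio differed widely among members. Taking for each gene the median over rats of distal CPM over proximal CPM plus 0.1, it ran from 3.27 to 193 with a median of 6.38. The smallest ratio in any rat was at least 5 for 26 members and at least 10 for 11 of them, and it was under 4 for 23. At the threshold, the 5 members closest to it had a smallest ratio of 3.07 to 3.09, and the 5 genes closest below it had 2.89 to 2.97, so the edge of the group is not marked by a gap. The fitted distal minus proximal difference was positive and passed the edgeR test for all 67, against a background of 19.7% of the 15037 genes tested that were higher in distal tendon. This is the contrast that chose the genes, and nothing is read from it.

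The limits were also applied without each rat in turn, to describe how often a gene chosen in 4 rats met them in the fifth. With the limits applied to 4 rats at a time, 72 genes were chosen without rat 1, 82 without rat 2, 91 without rat 3, 67 without rat 4 and 75 without rat 5. In the rat not used, the ratio was at least 3 for 93.1% of them in rat 1, 80.5% in rat 2, 73.6% in rat 3, 100% in rat 4 and 89.3% in rat 5. Of all genes with a mean of at least 5 CPM in the other 4 distal libraries, the ratio was at least 3 for 1.37 to 2.69%, depending on the rat. The genes that passed in the unused rat were all members, so these shares describe the genes near the limits and not the 67. The distal value was above the proximal value plus 0.1 CPM in the unused rat for every gene so chosen except 1, which had a ratio of 0.619 in rat 2. The median ratio in the unused rat was lowest in rat 3, at 4.44, and highest in rat 4, at 8.17. Of the genes chosen each time, 66 or 67 were members, whose ratio is at least 3 in every rat by the choice. The sign and the median ratio are therefore largely fixed beforehand, and nothing is read from them. Rat 3 had the lowest distal value of the 5 rats for 22 members, and rat 5 for 26.

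**Figure D1:**
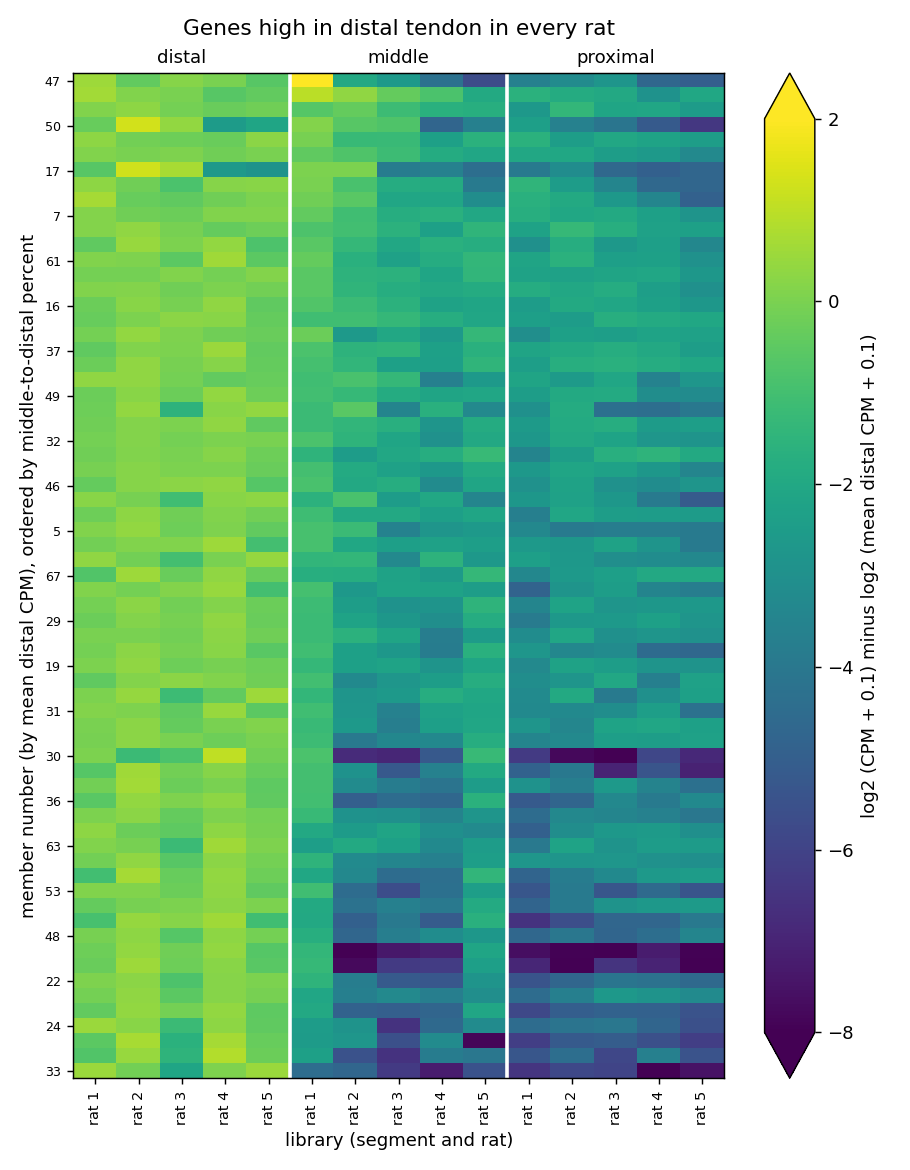
Each row is 1 of the 67 genes and each column 1 library; colour gives log2 (CPM + 0.1) minus the log2 of the gene's mean distal CPM plus 0.1, with values beyond the ends of the scale shown in the end colours. Rows run from the highest middle-to-distal percent (member 47, 123%) to the lowest (member 33, 2.19%), and the middle column of rat 1 is closest to the distal colours over most rows.

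In the middle segment most of these genes had lost the larger part of their distal level. The mean middle CPM was 26.0% of the mean distal CPM for the median member, with quartiles of 17.8 and 36.1%. The proximal level was 14.1% of distal for the median member. Of the 67 genes, 60 lay between 10 and 50% of distal in the middle, 3 at 50% or above and 4 under 10%. All 67 had a fitted middle level below distal, with a median log2 difference of -2.13 against 0.01 over all genes tested. For 63 of them the difference passed the test (edgeR quasi-likelihood test, blocked by rat, adjusted p under 0.05), where 11.6% of all genes tested were lower in middle tendon. All 5 middle libraries lay below all 5 distal libraries for 52 members, against 4.65% of all genes tested. These counts rest on the distal libraries that chose the genes and are given as a description.

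The 4 members that did not pass were members 17, 21, 47 and 51, with fitted differences of -1.50, -1.81, -1.92 and -0.31 and adjusted p of 0.149, 0.0515, 0.217 and 0.461 (edgeR). Leaving out rat 4 gave the fewest calls, 54, and the fit with no replicate block gave 58. The fits without the middle library of rat 5 and without the proximal library of rat 2 gave 60 and 63. Among all genes tested, in either direction, these 4 fits called 1849, 2303, 2917 and 3598, against 3731 in the reported fit.

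Against proximal tendon, the middle level was higher for all 67 members by fitted difference, with a median of 0.92 log2 units against 0.00 over all genes tested. The difference passed the test for 2 members (edgeR, adjusted p under 0.05), where 0.14% of all genes tested were higher in middle tendon, and 42 had an unadjusted p under 0.05, where 9.78% of all genes did. Members 18 and 51 were the 2 that passed, with differences of 1.10 and 1.87 log2 units and the same adjusted p of 0.0437 (edgeR). The call depended on the fit. It was made for no member without rat 2, rat 3 or rat 4 and none with no replicate block, for member 50 alone without rat 1, for members 14 and 51 without rat 5, for 3 members without the middle library of rat 5, for 5 members without the proximal library of rat 2, and for 26 members by DESeq2. Among all genes tested, the reported fit called 62 in either direction, and the fits without rats 1 to 5 in turn called 27, 35, 0, 0 and 30. The fit with no replicate block called 0, that without the middle library of rat 5 129, that without the proximal library of rat 2 536, and DESeq2 1170. No member had all 5 middle libraries above all 5 proximal ones, against 0.372% of all genes. These counts rest on the proximal libraries that chose the genes.

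The rats differed in how far the genes reached into the middle. The median middle-to-distal percent within a rat was 50.0% in rat 1, 20.4% in rat 2, 19.96% in rat 3, 14.0% in rat 4 and 28.5% in rat 5. All values in this paragraph use CPM on column totals and were not recomputed with TMM scaling. In rat 5 the TMM factor was 0.965 in distal and 1.23 in middle tendon, so scaling would lower its percent. It would lower that of rats 1, 3 and 4 by less and raise that of rat 2. In rat 1, 33 members stood at 50% of their distal level or more, with 8 in rat 2, 2 in rat 3, 1 in rat 4 and 3 in rat 5. On a scale from 0 at the proximal to 1 at the distal level of the same rat, in log2 (CPM + 0.1), the median member lay at 0.69 in the middle of rat 1, 0.34 in rat 5, 0.19 in rat 2, 0.09 in rat 3 and 0.02 in rat 4. The middle segments of rats 3 and 4 were therefore nearly at the proximal level for the median member, and that of rat 1 was nearer to distal.

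In CPM on column totals, many members were lower in the middle than in the proximal segment of the same rat. This held for 28 members in rat 4, 24 in rat 3, 16 in rat 2, 4 in rat 5 and 0 in rat 1. Distal above middle and middle above proximal in all 5 rats was found for 19 of the 67. The middle was above distal for 4 members in rat 1 and 1 in rat 2, and for none in the other rats. The shares of all genes tested were not taken for these counts, and the counts were not recomputed with TMM scaling. Scaling would raise the middle against the proximal level in rats 2 and 4, lower it in rats 1 and 3 and hardly change it in rat 5. By the fitted, TMM-scaled difference over all rats, the middle was above proximal for all 67.

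**Figure D2:**
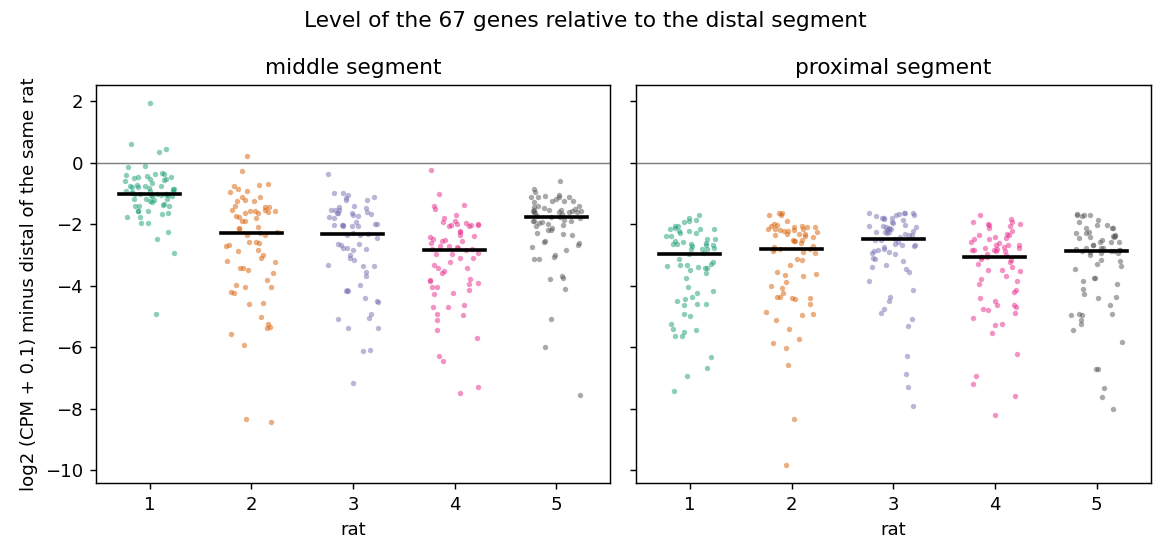
Points are the 67 genes and black bars their medians; the vertical axis is log2 (CPM + 0.1) minus that of the distal segment of the same rat, for middle (left) and proximal (right) tendon. The middle points of rat 1 lie highest, around 50.0% of distal, while those of rat 4 overlap the range of its proximal points.

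The middle value was highest in rat 1 for 55 of the 67 members, in rat 2 for 7 and in rat 5 for 5. Over all genes tested the order was another one: 11.8% were highest in the middle of rat 1, and 59.8% in that of rat 5. All these orders use CPM on column totals. The TMM scaling factor of the fits was 1.23 for the middle library of rat 5 and 0.897 to 1.02 for the other middle libraries. Applying it would lower the CPM of rat 5 relative to the other rats, and the orders were not recomputed with it. The lowest middle value was found in rat 4 for 28 members, in rat 3 for 15, in rat 5 for 13 and in rat 2 for 11, and in rat 1 for none. Over all genes tested the lowest value was in rat 4 for 13.4%, in rat 3 for 16.0%, in rat 5 for 12.02%, in rat 2 for 38.7% and in rat 1 for 19.8%. The coefficient of variation between rats (SD over mean) had a median of 63.1% in the middle, 24.7% in distal and 37.8% in proximal tendon. It was larger in the middle than in distal tendon for 64 of the 67. The choice set a limit on the distal and proximal values of every rat and none on the middle values. The spreads of the members are thus not compared on equal terms. Over all genes tested the medians were 22.0% in middle, 12.4% in distal and 23.5% in proximal tendon, and 79.5% of genes varied more in the middle than in the distal libraries.

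The members with the highest counts show this difference between rats gene by gene. Member 1, ENSRNOG00000014288, stood at 13009, 15402, 13801, 13837 and 11083 CPM in the distal libraries of rats 1 to 5, at 6859, 3648, 2755, 2137 and 3630 CPM in the middle, and at 2127, 3083, 2758, 2037 and 1217 CPM in the proximal libraries. Its 5 distal values lay above all others, while the middle and proximal ranges overlapped and rats 3 and 4 had nearly the same value in both. The middle was at 28.3% of distal and the fitted middle minus distal difference was -2.01 log2 units (edgeR, adjusted p = 0.00111).

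Member 2, ENSRNOG00000002385, was at 5640, 9419, 5248, 6098 and 4462 CPM in distal, 3113, 677, 446, 343 and 1124 CPM in middle, and 816, 462, 1022, 530 and 310 CPM in proximal tendon. Its middle value was 55.2% of distal in rat 1, 25.2% in rat 5 and 5.62 to 8.50% in the other rats, and in rats 3 and 4 it lay below the proximal value.

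Member 4 dipped in the middle in some of the rats, while its mean was 175 CPM in middle and 133 CPM in proximal tendon. It was measured at 836, 1032, 862, 738 and 848 CPM in distal, 396, 55.3, 84.3, 86.1 and 252 CPM in middle, and 78.3, 87.6, 162, 158 and 179 CPM in proximal tendon. The middle was the lowest segment in rats 2, 3 and 4, and lay between both ends in rats 1 and 5.

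Member 6 had the largest median distal-to-proximal ratio, 193, and its middle libraries fell into a high and a low group. Its middle value was 228 CPM in rat 1 and 138 CPM in rat 5, against 2.16, 3.55 and 4.17 CPM in rats 2, 3 and 4. The distal values were 515, 781, 524, 769 and 387 CPM and the proximal values 2.88, 2.32, 2.08, 3.89 and 2.32 CPM. In rats 2, 3 and 4 the middle was thus at the proximal level, and in rats 1 and 5 it was within 3 times of distal.

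**Figure D3:**
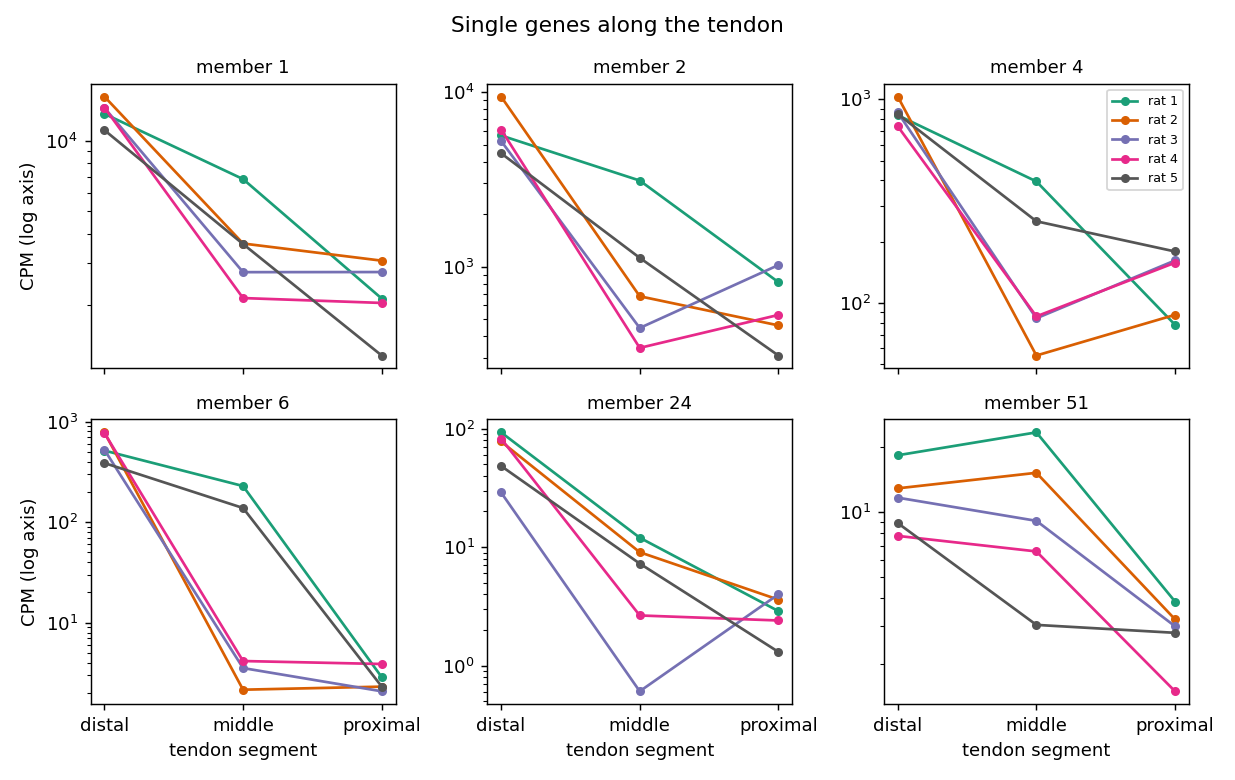
CPM on a log axis in the distal, middle and proximal segments for 6 members, 1 line per rat. Members 2, 4 and 6 keep a high middle value in rats 1 and 5 only, member 24 falls steeply in all rats, and member 51 stays near its distal level in the middle of rats 1 to 4.

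The members also differed in which rat came second to rat 1 in the middle. These orders were noted after the values were seen and are described without a test. Rat 1 was highest and rat 5 next in 24 members, among them members 2, 4, 6, 9, 13, 20, 22, 26, 30 and 35. Rat 1 was highest and rat 2 next in 23 members, among them members 1, 3, 5, 7, 8, 14, 21, 24, 33, 39, 47, 50 and 51. These 2 orders were found for 3.02 and 4.09% of all genes tested. The median middle-to-distal percent in rat 5 was 32.0% in the former and 26.8% in the latter. In rats 3 and 4 it was 10.9 and 7.66% in the former and 30.03 and 16.7% in the latter. The grouping is made from these same middle values. It places rat 5 above rats 2, 3 and 4 in the former and below rat 2 in the latter, and it limits rats 3 and 4 too. No difference between the groups is read from these percents, and rat 2 is not shown. The median distal-to-proximal ratio was 10.8 in the former and 5.92 in the latter. That ratio is part of how the genes were chosen, and the orders rest on CPM without TMM scaling. No difference between the groups is read from the ratio either. In CPM on column totals, without TMM scaling, the middle value of rat 5 exceeded those of rats 2, 3 and 4 for 29 of the 67 members (43.3%). The share was 62.9% of all genes tested. Rat 5 was the lowest of all middle libraries for 13 members. Member 21 was one of them, at 101, 55.3, 29.2, 28.5 and 6.84 CPM in the middle of rats 1 to 5, with distal values of 58.1 to 127 CPM and proximal values of 36.8, 18.4, 9.23, 4.09 and 3.80 CPM.

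The 4 members under 10% of distal in the middle were members 24, 33, 39 and 57. Member 33 was the lowest, with 39.7, 26.2, 6.42, 29.4 and 40.3 CPM in distal and 1.22, 1.01, 0.260, 0.0868 and 0.530 CPM in middle tendon. Its proximal values were 0.225, 0.395, 0.357, 0 and 0.0567 CPM, and 0 of the 15413963 counts of the proximal library of rat 4 allow a level of up to 0.195 CPM. No middle library came near a distal one, and the middle minus distal difference was -5.59 log2 units (edgeR, adjusted p = 0.000445). Member 24 had 93.2, 78.0, 28.9, 82.5 and 48.5 CPM in distal, 12.01, 9.06, 0.606, 2.65 and 7.26 CPM in middle, and 2.88, 3.60, 3.99, 2.40 and 1.30 CPM in proximal tendon. It was lower in the middle than in the proximal library of rat 3.

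At the other end, the 3 members at or above 50% were members 18, 47 and 51. Member 51 was at 18.3, 12.9, 11.7, 7.78 and 8.91 CPM in distal, 23.4, 15.2, 9.13, 6.59 and 3.02 CPM in middle, and 3.87, 3.21, 2.98, 1.49 and 2.78 CPM in proximal tendon. Its middle level was above distal in rats 1 and 2 and at 78.2, 84.8 and 33.9% of distal in rats 3, 4 and 5. Member 18 was steadier, with 162, 187, 142, 124 and 133 CPM in distal, 96.0, 117, 68.0, 47.6 and 45.5 CPM in middle, and 23.1, 57.1, 34.4, 35.0 and 26.2 CPM in proximal tendon. Its middle level was between both ends in all 5 rats.

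The place of member 47 rests on 1 library. Its middle values were 107, 4.81, 2.98, 0.868 and 0.265 CPM, against 27.6, 14.2, 21.3, 18.5 and 12.3 CPM in distal and 1.44, 1.97, 2.68, 0.649 and 0.510 CPM in proximal tendon. The middle was 387% of distal in rat 1 and 33.7, 14.0, 4.69 and 2.15% in rats 2 to 5. Without rat 1, the number of members at or above 50% was 1, and the number under 10% was 13.

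The distal level itself varied by rat for a few members. The highest distal library exceeded the lowest by 1.91 times for the median member, and by over 5 times for members 17, 33, 50 and 57. Members 17 and 50, singled out after their values were seen, had their 3 highest distal values in rats 1, 2 and 3. Member 17 was at 107, 400.3, 261, 26.8 and 22.6 CPM in distal, 165, 168, 11.6, 13.3 and 7.63 CPM in middle, and 10.8, 18.7, 6.55, 5.19 and 6.18 CPM in proximal tendon. Member 50 was at 10.5, 32.4, 16.9, 2.18 and 2.92 CPM in distal, 14.3, 8.57, 7.70, 0.390 and 0.954 CPM in middle, and 2.43, 0.986, 0.655, 0.260 and 0.0567 CPM in proximal tendon. For both, the distal values of rats 4 and 5 were below the middle values of rat 1.

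A comparison of the middle with the midpoint of both ends asked where along the tendon the level falls. The midpoint is the mean of the distal and proximal log2 levels, and a negative difference means that the middle is nearer to the proximal level. The midpoint is built from the distal and proximal libraries that chose the genes. The contrast would be orthogonal to the choice only with equal spread in all segments, and the coefficients of variation given above were unequal, so the counts are a description of these genes. The fitted difference was negative for 61 of the 67 members (91.0%), against 49.2% of all 15037 genes tested. Its median was -0.59 log2 units over the members, with quartiles of -0.81 and -0.34, and 0.00 over all genes tested.

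Single genes did not pass this test after adjustment. Of the 67 members 0 were called (edgeR, blocked by rat, smallest adjusted p = 0.139), as were 0 of all genes tested. At an unadjusted p under 0.05, 29 members were lower (43.3%), where 6.62% of all genes tested were, and 1 member was higher, where 8.78% were. DESeq2 called 14 members, all lower in the middle, limma called 0, and edgeR without rat 1 called 1, member 10. Among all genes tested, in either direction, these fits called 582, 0 and 2. The sign was negative in the reported fit and in all 12 alternative fits for 53 members, and positive in all of them for members 50 and 51. How many of all genes tested kept their sign in every fit was not counted.

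The members with the smallest unadjusted p, singled out after their values were seen, were 11, 19 and 13. Member 11 was at 240, 330, 172, 316 and 243 CPM in distal, 93.4, 27.7, 23.9, 20.9 and 49.6 CPM in middle, and 38.9, 38.1, 38.7, 33.6 and 32.0 CPM in proximal tendon. The middle was the lowest segment in rats 2, 3 and 4. Its difference from the midpoint was -1.39 log2 units (edgeR, adjusted p = 0.139), and within rats it was -1.39 ± 0.93 (SD, n = 5), negative in all 5. Member 13 had a difference of -1.49 (edgeR, adjusted p = 0.147), with middle values of 60.1, 19.4, 26.0, 19.0 and 30.4 CPM, distal values of 177 to 320 CPM and proximal values of 11.4 to 39.4 CPM. Member 51 was the only one higher than the midpoint at an unadjusted p under 0.05, with a difference of 0.78 (edgeR, adjusted p = 0.195), positive in 4 of 5 rats.

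The difference from the midpoint again depended on the rat. In log2 (CPM + 0.1), 63 of the 67 members were below the midpoint in rat 3, 62 in rat 4, 53 in rat 5, 52 in rat 2 and 7 in rat 1. Only 4 members, 11, 24, 33 and 63, were below it in all 5 rats, and 52 were below it in rats 2, 3 and 4 together. These counts use CPM on column totals, without TMM scaling. The shares of all genes tested below the midpoint in each rat were not taken, so how far the rats differ for the members in particular is not shown. Without rat 1 the median fitted difference was -0.95 log2 units and 65 members were negative. Without the middle library of rat 5 it was -0.64 with 58 negative, and without the proximal library of rat 2 it was -0.56 with 61 negative.

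Genes high at the other end served as a comparison. The same limits with both ends exchanged gave 41 genes whose proximal level was at least 3 times the distal one in every rat. Their fitted difference from the midpoint had a median of 0.19 log2 units and was negative for 15 of the 41 (36.6%). Again 0 were called (edgeR, smallest adjusted p = 0.139), with 9 higher and 0 lower at an unadjusted p under 0.05. A positive value here means that the middle is nearer to the proximal, high end. On a scale from 0 at their low, distal end to 1 at their high, proximal end, the median of these genes lay between 0.43 and 0.65 in the 5 middle segments (0.53 ± 0.0807, SD, n = 5). The distal-high genes, on the scale from their own low end to their own high end, covered 0.02 to 0.69 (0.27 ± 0.266). In rat 1 the distal-high genes stood further toward their high end than the proximal-high genes did, at 0.69 against 0.56, and in the other 4 rats less far. Whether both groups differ was not tested.

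**Figure D4:**
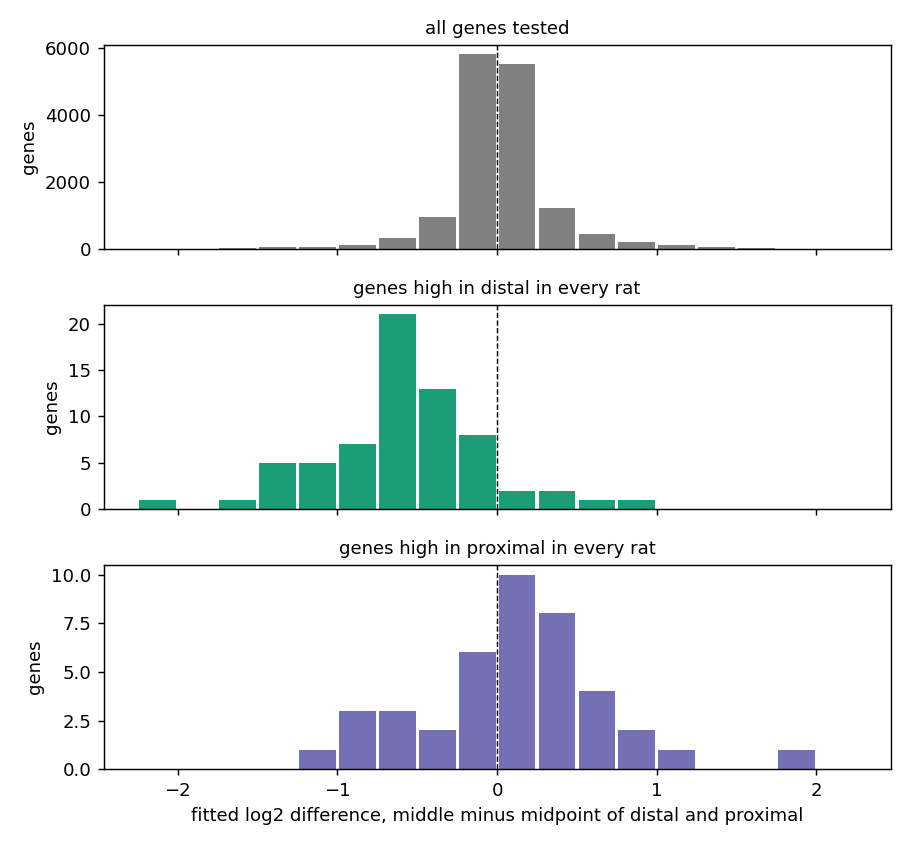
Number of genes by fitted log2 difference of the middle from the midpoint of distal and proximal tendon, for all genes tested (17 of the 15037 lie beyond the plotted limit of 2.25 in either direction), the 67 distal-high genes and the 41 proximal-high genes. The distal-high genes centre at -0.59, to the left of the dashed line at 0, and the proximal-high genes at 0.19.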

How the data were processed

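Poly(A)-selected RNA of 15 tendon segments (3 segments of 5 rats) was sequenced as strand-specific, paired-end libraries, per the labels' protocols. The table deposited by the authors gives unnormalized read counts for each Ensembl gene. The submitters' processing notes name featureCounts 2.0.1, SAMtools 1.9, HISAT2 2.2.1, fastp 0.19.10 and build rn6, with options, annotation release and strand setting not given in the sources used here. Reads from overlapping, antisense or near-identical genes may thus have been split between genes. Each of the 15 columns names its segment and rat.

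CPM used column totals. Genes were filtered with filterByExpr by segment (15037 genes, all 67 members among them), scaled by TMM and fitted in R 4.3.3 with edgeR 4.0.16, by robust quasi-likelihood with segment and rat as terms over all libraries. P-values were adjusted by Benjamini-Hochberg across the 15037 genes, and 0.05 was the threshold. Libraries of 1 rat come from the same animal, as their titles state, and the deviations from segment means correlated at over 0.1 in 13 of the 15 same-rat pairs. Alternatives were DESeq2 1.42.0, limma 3.58.1, RLE scaling, no filter on low counts, no replicate block, each rat left out, other limits for membership, and, chosen after seeing the data, 2 single libraries left out. The count intervals behind floors (3 counts) cover counting error only.

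The members and lists were chosen with earlier results of these data known. Described members are the 10 highest in mean distal CPM, the 8 with the highest and the 8 with the lowest middle-to-distal percent and the 6 steepest by median ratio, and others where a sentence says that they were singled out or gives the count they belong to. Gene lists prepared for cartilage, signalling, patterning and cell types could not be applied without gene symbols.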

Additional observations from a re-analysis of the deposited data

Results flagged for a closer look

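Within each segment, the 5 libraries were screened for 1 library far from the rest, in the CPM of 28 members and in 5 measures over all members. Of 89 such sets, 7 held one, where a nominal 5% of sets would be 4.45. The 28 members are those listed by level, median ratio or highest or lowest middle-to-distal percent. Some of them, member 47 among them, were thus listed by the middle values screened here. The nominal 5% does not hold for a list chosen this way, so no excess over chance is read from the 7. The sets are not independent, since the members share the libraries. The highest value was that of rat 1 in all 7, and 6 of the 7 were in the middle segment.

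In the middle of rat 1, member 2 was at 3113 CPM (others 343 to 1124), member 9 at 201 CPM (others 41.7 to 69.9), member 10 at 132 CPM (others 56.6 to 74.4), member 13 at 60.1 CPM (others 19.0 to 30.4) and member 47 at 107 CPM (others 0.265 to 4.81). The share of middle counts held by all 67 genes was 1.43% in rat 1 and 0.380 to 0.682% in the other rats. In proximal tendon, member 5 was at 71.3 CPM in rat 1 and 48.1 to 52.0 CPM in the other rats.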

How the results depend on the processing

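The number of members was 186 at 2 times and 26 at 5 times in place of 3, 44 with a mean distal level of at least 20 CPM, and 67 to 91 with 1 rat left out of the choice. The members called for middle against distal stayed within 1.5 times of 63 in all 12 alternative fits (54 to 63 with a rat left out, 58 with no replicate block). All genes called, in either direction, were 3731 in the reported fit, 1849 to 3047 with a rat left out and 2303 with no replicate block. Those called for middle against proximal were 2 in the reported fit and 26 with DESeq2. They were 0 with no replicate block, 5 without the proximal library of rat 2 and 0 to 2 with a rat left out. Among all genes tested, in either direction, these 5 counts were 62, 1170, 0, 536 and 0 to 35. Those called for middle against the midpoint were 0 in the reported fit, 14 with DESeq2, 0 to 1 with a rat left out and 0 with no replicate block. The same fits called 0, 582, 0 to 2 and 0 of all genes tested, in either direction. The median difference from the midpoint stayed negative in all alternatives (-0.95 to -0.42 with a rat left out, -0.48 with no replicate block), and 56 to 65 members were below it with a rat left out.

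The median middle-to-distal percent was 19.8 to 30.2% with a rat left out, and 13.1% with the proximal level subtracted from both. The members under 10% of distal in the middle, 4 in the reported values, were 15 by the median over rats, 20 with the proximal level subtracted and 3 to 13 with a rat left out, and those at or above 50% were 1 to 7. The causes of these shifts were not tested. Depth limits the lowest values: 18 members had fewer than 100 counts over the 5 proximal libraries, the lowest 20, and 2 members had 0 counts in a proximal library.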
